A study of Mus musculus with 9 samples.

Results

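The PD-1 axis and the other classical T cell checkpoints were followed as 10 genes, Cd274, Pdcd1lg2, Pdcd1, Ctla4, Lag3, Havcr2, Tigit, Vsir, Lgals9 and Pvr, chosen by symbol from the 54429 symbols of the count table. All 10 symbols were present. RNA-seq was performed on 9 whole NB9464 tumors, grown under the skin of wild-type C57BL/6 mice by implantation of cells of a MYCN-driven mouse neuroblastoma line. The mice were 4 to 6 weeks old at implantation, and treatment began at a tumor volume of 250 mm3. The 3 groups had 3 tumors each: Vehicle; R788 + anti-PDL1, in which mice received R788 at 50 mg/kg, on 5 occasions a week, and the anti-PDL1 antibody clone 10F.9G2, 4 times a week as the labels give it; and Rad + R788 + anti-PDL1, which added 10 Gy of radiation. The design text of the series instead lists 4 doses between days 28 and 37 without naming the agents, so the antibody schedule is uncertain. R788 (fostamatinib) is an inhibitor of the kinase Syk. The last group is called the irradiated group below. No group received a single agent. R788 and the antibody were always given together, so their parts cannot be told apart. By the labels, the irradiated group differed from R788 + anti-PDL1 only in the 10 Gy of radiation. That comparison therefore addresses radiation added to the combination, and radiation without R788 and the antibody was not tested. All tumors derive from 1 cell line. The labels number the tumors without stating that each came from a different mouse, so p-values measure the spread between these tumors only.

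Checkpoint receptors are brakes on T cells. PD-1, encoded by Pdcd1, appears on T cells after activation and dampens antigen receptor signaling when it binds PD-L1 (Cd274) or PD-L2 (Pdcd1lg2) on tumor cells and myeloid cells. CTLA-4 competes with CD28 for the costimulatory ligands CD80 and CD86, LAG-3 binds MHC class II, TIM-3 (Havcr2) binds galectin-9 (Lgals9), and TIGIT binds the poliovirus receptor (Pvr). VISTA (Vsir) is carried mainly by myeloid cells and restrains T cells. Interferon gamma made by T cells and NK cells induces PD-L1, and the antibody used here blocks the PD-L1 protein, whose amount RNA counts do not measure.

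Levels are given as CPM (counts scaled to the size of the library) after TMM normalization, a scaling for library composition. Total counts were 18276683 to 23397886 per library, and a count of 0 allows up to 3 counts, equal to 0.115 to 0.221 CPM. Irradiated replicate 1 stood apart from the rest, with correlations of log2 CPM across genes of 0.86 to 0.91 with the other 8 libraries, which correlated with one another at 0.94 to 0.98. Irradiated replicate 3 had the highest summed CPM of the T cell, NK cell, macrophage and dendritic cell markers among the 9 libraries. Its counts for Cd3d, Cd3e and Cd3g, the CD3 chains of the T cell receptor, summed to 150, against 4 to 25 in the other 8 libraries, and its 12 macrophage markers summed to 1973 CPM, against 346 to 755. Of the defining neuroblastoma markers, Th had 0 counts in all 9 libraries, whereas Mycn and Hand2 were abundant. Isl1 had 0 counts in the Vehicle tumors, 48 to 80 in the R788 + anti-PDL1 tumors and 14 to 27 in the irradiated tumors. It was the 1 neuroblastoma marker called by edgeR or DESeq2, tools described below. limma-voom with sample quality weights called others as well, among them Mycn and Hand2. In whole tumors, fewer cells of a type and less RNA per cell cannot be told apart.

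**Figure D1:**
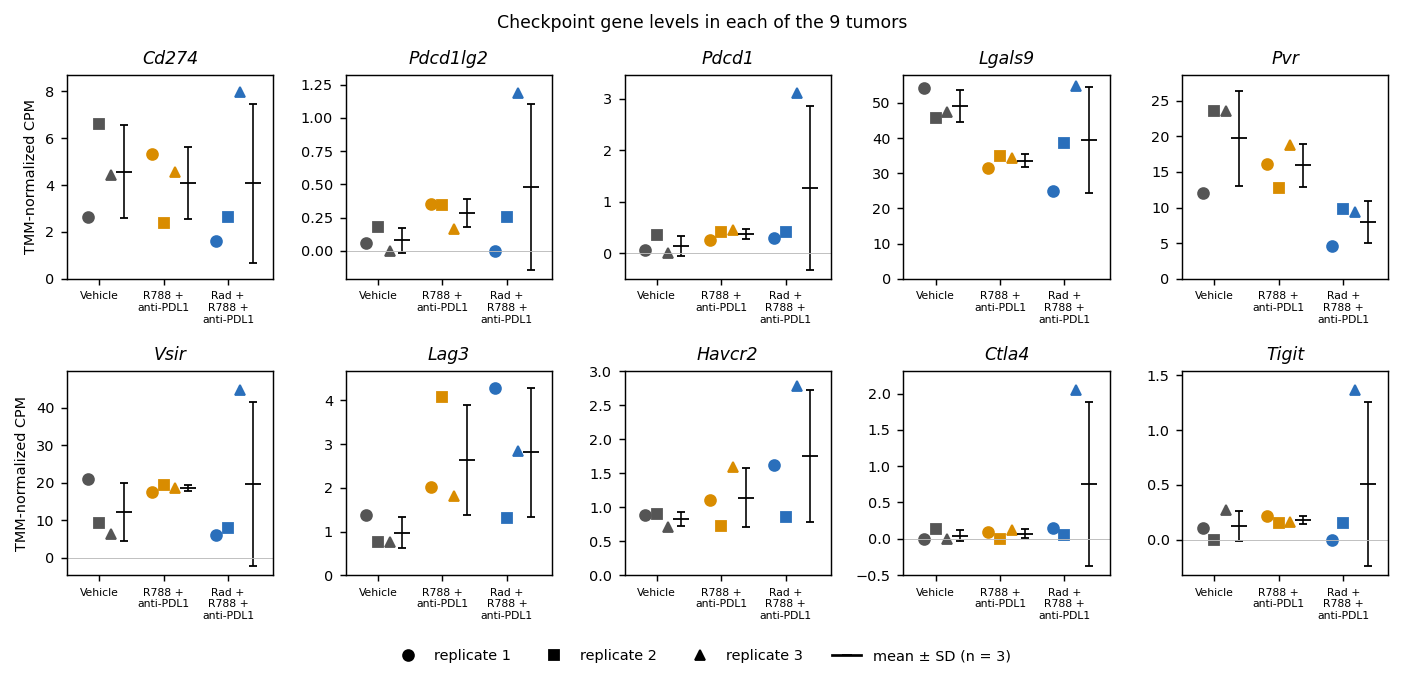
TMM-normalized CPM (vertical axes, a separate linear scale per gene) of the 10 checkpoint genes in each tumor, by group; symbols mark replicates 1 to 3, and the dash with whiskers is the mean ± SD (n = 3), which can extend below 0. Irradiated replicate 3, the blue triangle, is the highest tumor for 8 of the 10 genes, and Pvr and Lag3 are the exceptions.

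Irradiated replicate 3 was the highest library for 8 of the 10 genes and for 9.12% of all tested genes. The 8 include Pdcd1lg2, Pdcd1, Ctla4 and Tigit, which failed the filter on low counts described below, whereas the share covers genes that passed it. Lgals9 was highest there by only 1.01-fold. The ligands and the receptors differed widely in level. Per kilobase of exon in the Vehicle tumors, Lgals9 was the highest at 23.0 ± 2.14 CPM per kb (SD, n = 3). Pvr (3.22 ± 1.09), Vsir (2.44 ± 1.56) and Cd274 (1.26 ± 0.546 CPM per kb) followed, with ranges that overlapped between neighbors in that order. Lag3 (0.460 ± 0.168) and Havcr2 (0.306 ± 0.0379 CPM per kb) came next and did not overlap each other. Tigit, Pdcd1, Pdcd1lg2 and Ctla4 were lowest, from 0.139 down to 0.0193 CPM per kb, and their ranges overlapped. In the R788 + anti-PDL1 tumors Vsir (3.71 ± 0.182) lay above Pvr (2.60 ± 0.498 CPM per kb) without overlap, and Lag3 (1.25 ± 0.597) overlapped Cd274 (1.13 ± 0.424 CPM per kb). In the irradiated tumors Lgals9 was again the highest (18.5 ± 7.01 CPM per kb), and every other gene overlapped its neighbor in the order.

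Each comparison was fitted across all 15931 genes that passed a filter on low counts, by the quasi-likelihood test in edgeR with Benjamini-Hochberg adjustment over all of them. Of the 10 checkpoint genes, Cd274, Lgals9, Pvr, Vsir, Lag3 and Havcr2 passed the filter, and Pdcd1lg2, Pdcd1, Ctla4 and Tigit did not. No tested checkpoint gene reached an adjusted p under 0.05 in any comparison. For R788 + anti-PDL1 against Vehicle this was 0 of 6, with 0.678% of all tested genes called. For the irradiated group against Vehicle it was 0 of 6, against 0.0439% of all tested genes, and for the irradiated group against R788 + anti-PDL1 0 of 6, against 0.00628%. Unadjusted p-values under 0.05 were obtained for 1 (Lag3), 2 (Pvr and Lag3) and 1 (Pvr) of the 6 genes in these comparisons, beside 11.7%, 13.2% and 18.4% of all tested genes. DESeq2 called 0, 1 and 0 checkpoint genes, and limma-voom with sample quality weights called 2, 1 and 1, as given with the genes below. Both tools called many more of all genes than edgeR did, and those numbers are given at the end under the dependence on processing. DESeq2 was fitted to all genes with any counts, so its calls are not a share of the 15931. limma-voom called a large part of the 15931 genes in each comparison, so its calls were not particular to the checkpoint genes. The same numbers apply to the tool counts of the gene lists below. The median log2 fold change of the 6 genes was 0.15, 0.26 and 0.08, and that of all tested genes was -0.02, 0.05 and 0.04. The comparisons share groups, so they are not independent of one another.

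**Figure D2:**
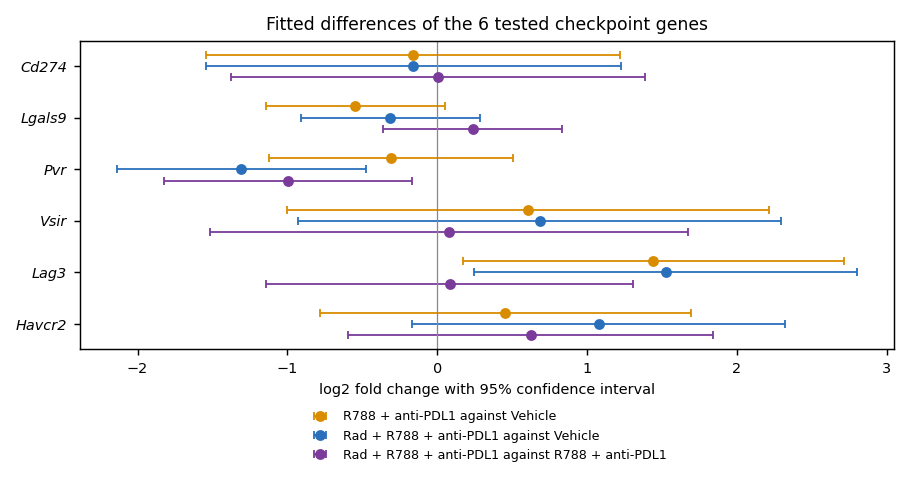
Fitted log2 fold changes (horizontal axis, points) with 95% confidence intervals (whiskers) of the 6 tested checkpoint genes (vertical axis), in color by comparison. The intervals of Pvr lie below 0 in both comparisons of the irradiated group and those of Lag3 above 0 in both comparisons with Vehicle, before any adjustment for the 15931 genes tested.

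Cd274 encodes PD-L1, the target of the antibody. It lies at chr19:29367455-29388095 on the plus strand (GRCm38, ENSMUSG00000016496.7), and Pdcd1lg2 begins 22.8 kb downstream of its end on the same strand. Cd274 was measured at 2.65, 6.60 and 4.44 CPM in Vehicle replicates 1 to 3, at 5.34, 2.37 and 4.55 CPM in the R788 + anti-PDL1 tumors, and at 1.62, 2.64 and 7.95 CPM in the irradiated tumors. The irradiated group held both the lowest and the highest tumor of the series, and the 3 groups overlapped. The log2 fold change was -0.16 ± 0.62 (SE) for R788 + anti-PDL1 against Vehicle, with a 95% interval of -1.55 to 1.22 and an edgeR adjusted p of 0.953. The irradiated group differed from Vehicle by -0.16 ± 0.62 as well (-1.54 to 1.23; edgeR adjusted p = 0.910) and from R788 + anti-PDL1 by 0.00 ± 0.61 (-1.38 to 1.38; edgeR adjusted p = 0.998). These intervals admit changes of more than 1 log2 unit in either direction, so a moderate change of Cd274 was not detectable with these tumors. The direction depended on single tumors: against Vehicle, the log2 fold change of the irradiated group ranged from -1.09 without irradiated replicate 3 to 0.25 without irradiated replicate 1. Cd274 shares exon bases with the opposite-strand AC119228.1, which had no row in the count table. Whether the library kit kept the strand was not given in the sources used here, so the counts of Cd274 carry that uncertainty.

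The sequences upstream of the start sites are shown because 8 of the 10 genes were highest in the same tumor and because interferon gamma acts on PD-L1 through interferon regulatory factors. RefSeq promoter sequences were matched for 8 of the 10 genes, and Pvr and Lag3 were not matched. In the 250 bases before the start, on both strands, the core of the interferon-stimulated response element, GAAA repeated after 2 arbitrary bases, was found in 1 of the 8 genes, Lgals9, 55 bases before its start, and in 2.98% of 32851 promoters. The hypoxia response core ACGTG was found in 3 of the 8, Havcr2, Ctla4 and Tigit, and in 16.6% of the promoters. The motifs were searched separately and could overlap, and a match or its absence describes these letters only. The upstream sequences of the gene targeted by the antibody, of the gene with the interferon element, and of the pair of T cell receptors with the hypoxia core are printed 5′ to 3′ on the strand of the gene (RefSeq, GRCm38.p6), with a matched motif in capitals. By these RefSeq starts, Ctla4 begins 22025 bases inside the GENCODE gene bounds given for it below, while the starts of Cd274, Lgals9 and Tigit lie within 38 bases of the GENCODE starts. The sequences lie at chr19:29367188-29367437 (plus) for Cd274, chr11:78984925-78985174 (minus) for Lgals9, chr1:60908775-60909024 (plus) for Ctla4 and chr16:43664185-43664434 (minus) for Tigit.
Cd274: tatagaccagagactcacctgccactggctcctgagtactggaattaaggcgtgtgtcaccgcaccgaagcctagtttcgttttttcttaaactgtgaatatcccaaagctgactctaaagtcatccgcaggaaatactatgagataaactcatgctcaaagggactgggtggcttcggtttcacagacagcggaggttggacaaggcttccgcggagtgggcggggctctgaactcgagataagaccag
Lgals9: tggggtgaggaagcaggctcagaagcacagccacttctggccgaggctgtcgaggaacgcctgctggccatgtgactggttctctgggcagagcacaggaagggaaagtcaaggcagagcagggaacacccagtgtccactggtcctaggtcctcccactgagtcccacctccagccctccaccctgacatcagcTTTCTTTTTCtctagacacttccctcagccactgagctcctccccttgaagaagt
Ctla4: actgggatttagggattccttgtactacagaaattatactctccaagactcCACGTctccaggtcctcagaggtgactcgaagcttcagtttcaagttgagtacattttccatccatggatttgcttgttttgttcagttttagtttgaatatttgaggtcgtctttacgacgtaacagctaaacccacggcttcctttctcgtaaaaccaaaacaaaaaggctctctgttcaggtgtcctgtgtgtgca
Tigit: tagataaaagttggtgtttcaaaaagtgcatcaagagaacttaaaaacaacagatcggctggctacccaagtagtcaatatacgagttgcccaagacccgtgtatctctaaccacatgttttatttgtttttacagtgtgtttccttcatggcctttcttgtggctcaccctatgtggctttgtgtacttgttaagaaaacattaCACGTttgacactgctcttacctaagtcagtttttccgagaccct

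By the root mean square difference of log2 CPM, each gene centered on its own mean over the 9 libraries, the genes whose pattern was most like that of Cd274 were Dhx58 (0.26), Zbtb18 (0.33) and Cd300lf (0.33), beside a standard deviation of Cd274 itself of 0.70. Dhx58 ranged from 1.70 to 11.2 CPM over the libraries.

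Genes that set PD-L1 levels or carry PD-1 signals were followed as a list of 13, of which 12 were tested. edgeR called none in any comparison, with 1 unadjusted p under 0.05 in each, beside 11.7%, 13.2% and 18.4% of all tested genes. DESeq2 called 1, 0 and 1, and limma-voom with sample quality weights, which called a large part of all genes, called 4, 1 and 4. Their median log2 fold changes were -0.08 for R788 + anti-PDL1 against Vehicle, -0.04 for the irradiated group against Vehicle and 0.17 for the irradiated group against R788 + anti-PDL1. Cmtm4, which encodes a membrane protein that stabilizes PD-L1, had the list's lowest p in both comparisons that involve the R788 + anti-PDL1 group. It was measured at 90.6 ± 3.17 CPM in the R788 + anti-PDL1 tumors, 55.8 ± 3.78 in the Vehicle tumors and 55.6 ± 11.5 in the irradiated tumors (SD, n = 3). The R788 + anti-PDL1 tumors overlapped neither of the other groups. Lack of overlap held for 30.1% of all tested genes against Vehicle and for 27.4% between the treated groups. The log2 fold change of Cmtm4 against Vehicle was 0.70 ± 0.19 (edgeR adjusted p = 0.161), and the irradiated group differed from R788 + anti-PDL1 by -0.70 ± 0.19 (edgeR adjusted p = 0.209). DESeq2 called both of these differences (adjusted p = 0.0287 and 0.0394). Its relative Cmtm6, with the same role, was at 63.5 ± 5.92 CPM in the irradiated tumors and 47.3 ± 5.41 in the Vehicle tumors (log2 fold change 0.42 ± 0.18, edgeR adjusted p = 0.362). The list's highest and lowest fitted values included those of Cmtm4 for R788 + anti-PDL1 against Vehicle, of Ptpn6 (0.68 ± 0.54) and Jak2 (-0.52 ± 0.29) for the irradiated group against Vehicle, and of Ifngr2 (0.47 ± 0.29) and Cmtm4 for the irradiated group against R788 + anti-PDL1. The value of Ptpn6 became -0.05 without irradiated replicate 3, and without irradiated replicate 1 those of Jak2 and Ifngr2 became -0.20 and 0.11.

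Targets of interferon gamma, the main inducer of PD-L1, were followed as a list of 14 genes, all tested. In the same 3 comparisons DESeq2 called 2, 0 and 2 of them. limma-voom with sample quality weights, which called a large part of all genes, called 6, 1 and 4. Unadjusted edgeR p-values under 0.05 were obtained for 2, 1 and 4 of the 14, beside 11.7%, 13.2% and 18.4% of all tested genes. edgeR called only 1 of the 14, in R788 + anti-PDL1 against Vehicle, beside 0.678% of all tested genes there. This was Igtp, which encodes an interferon-inducible GTPase. It fell by 1.66 ± 0.26 on the log2 scale in R788 + anti-PDL1 against Vehicle (edgeR adjusted p = 0.0383), from 24.5 ± 5.75 to 7.75 ± 0.982 CPM. The call held under 7 of 13 alternatives, with adjusted p-values from 4.51e-06 to 0.222, and the counts of Igtp were uncertain because it shares exon bases with Irgm2, which lies on its strand. The list's median log2 fold change was -0.55 in this comparison, with 4 of 14 genes above 0. For the irradiated group against R788 + anti-PDL1 all 14 genes lay above 0, with a median of 0.73 and no gene called by edgeR, while Cd274 lay at 0.00. Without irradiated replicate 3, 6 of the 14 lay above 0 and the median was -0.09. The summed level of the list was 168 to 182 CPM in the Vehicle tumors, 112 to 128 in the R788 + anti-PDL1 tumors, 133 and 145 in irradiated replicates 1 and 2, and 265 CPM in irradiated replicate 3. Ciita, the master regulator of MHC class II, had the highest fitted value against Vehicle in both treated groups (2.42 ± 1.20 and 2.78 ± 1.21, edgeR adjusted p = 0.495 and 0.372). Ciita was at 0.221, 1.32 and 14.4 CPM in irradiated replicates 1 to 3 and at 0.404 to 0.994 CPM in the Vehicle tumors, and its value for the irradiated group became 0.03 without irradiated replicate 3. Against Vehicle, the irradiated group had a list median of 0.30 with 9 of 14 genes above 0, which became -0.40 with 4 of 14 without irradiated replicate 3.

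Pdcd1lg2, which encodes the second ligand of PD-1, was close to the limit of detection. It lies at chr19:29410919-29471161 (plus strand). It had 1, 4 and 0 counts in the Vehicle tumors, 8, 9 and 4 in the R788 + anti-PDL1 tumors and 0, 5 and 26 in the irradiated tumors. The 26 counts of irradiated replicate 3 corresponded to 1.19 CPM, 3.37 times the next highest library. Counts pooled over a group and divided by its effective library size gave a ratio of the irradiated group to Vehicle of 6.59 (95% interval 2.54 to 21.7), which became 1.76 (0.406 to 7.66) without irradiated replicate 3. The pooled ratio of R788 + anti-PDL1 to Vehicle was 3.36 (1.23 to 11.4). Vehicle replicate 2 held 4 of the 5 Vehicle counts, and without it these ratios were 20.4 for the irradiated group and 10.4 for R788 + anti-PDL1. These intervals cover counting error only and leave out the spread between tumors. With no filter on low counts, edgeR gave adjusted p-values of 0.733, 0.546 and 0.783 for Pdcd1lg2 in the 3 comparisons.

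Lgals9, which encodes galectin-9, was the most abundant of the ligands per kilobase. It lies at chr11:78962974-78984946 (minus strand). Its level was 54.3, 45.6 and 47.4 CPM in the Vehicle tumors, 31.4, 34.8 and 34.4 CPM in the R788 + anti-PDL1 tumors, and 24.9, 38.7 and 54.8 CPM in the irradiated tumors. All 3 R788 + anti-PDL1 tumors lay below all 3 Vehicle tumors, and the irradiated tumors spanned both groups. The log2 fold change of R788 + anti-PDL1 against Vehicle was -0.55 ± 0.27 (95% interval -1.14 to 0.05; edgeR adjusted p = 0.485). Lgals9 and Lag3 were the 2 of the 6 tested checkpoint genes whose groups did not overlap in this comparison, which held for 30.1% of all tested genes. limma-voom with sample quality weights called Lgals9 lower here (adjusted p = 0.0112). The irradiated group differed from Vehicle by -0.31 ± 0.27 (edgeR adjusted p = 0.574) and from R788 + anti-PDL1 by 0.24 ± 0.27 (edgeR adjusted p = 0.636), and without irradiated replicate 3 these became -0.63 and -0.08. Without irradiated replicate 1 the difference from Vehicle was -0.04.

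Pvr encodes the poliovirus receptor, the ligand of TIGIT, and was the lowest in the irradiated tumors. It lies at chr7:19903578-19921160 (minus strand). Its level was 12.0, 23.6 and 23.6 CPM in the Vehicle tumors, 16.1, 12.8 and 18.9 CPM in the R788 + anti-PDL1 tumors, and 4.57, 9.84 and 9.41 CPM in the irradiated tumors. Every irradiated tumor lay below every tumor of the other groups, and Vehicle replicate 1 came closest to them. Pvr was the 1 checkpoint gene of the 6 tested without overlap in each comparison of the irradiated group, which held for 20.5% of all tested genes against Vehicle and for 27.4% against R788 + anti-PDL1. The log2 fold change against Vehicle was -1.31 ± 0.37 (95% interval -2.14 to -0.48), with an unadjusted p of 0.00593 and an adjusted p of 0.247 in edgeR. Against R788 + anti-PDL1 it was -1.00 ± 0.37 (95% interval -1.82 to -0.17; edgeR adjusted p = 0.235). The call depended on the tool: DESeq2 called Pvr lower than Vehicle (adjusted p = 0.0359), and limma-voom with sample quality weights called it lower in both comparisons (adjusted p = 0.0111 and 0.0238). Leaving out single tumors gave -1.55 to -1.00 against Vehicle, with edgeR adjusted p-values of at least 0.173. R788 + anti-PDL1 differed from Vehicle by -0.31 ± 0.36 (edgeR adjusted p = 0.813).

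Irradiated replicate 3 held 7.37% of the Pvr counts (Wilson 95% interval 6.46 to 8.40%), against 11.0% of all counts, and Pvr was the 1 checkpoint gene of 10 whose share there lay below that of all counts. The genes with the pattern most like that of Pvr over the 9 libraries were Kdm3a (root mean square difference 0.16), Slc26a11 (0.18) and Slc2a3 (0.21), beside a standard deviation of Pvr of 0.70 in log2 CPM. Kdm3a ranged from 37.1 to 139 CPM and Slc2a3 from 14.5 to 71.3 CPM. Pvr overlaps Gm16184 and Gm16251 on the opposite strand without shared exon bases.

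Vsir, which encodes VISTA, was highest in the tumor with the most macrophage marker reads. It lies at chr10:60346851-60372684 (plus strand), opposite Cdh23 without shared exon bases. Its level was 21.1, 9.34 and 6.30 CPM in the Vehicle tumors, 17.6, 19.5 and 18.7 CPM in the R788 + anti-PDL1 tumors, and 6.12, 7.81 and 44.8 CPM in the irradiated tumors. The R788 + anti-PDL1 tumors were alike, whereas irradiated replicates 1 and 2 lay at the level of the lower Vehicle tumors and irradiated replicate 3 far above all others. The log2 fold change was 0.60 ± 0.72 for R788 + anti-PDL1 against Vehicle (edgeR adjusted p = 0.815), 0.68 ± 0.72 for the irradiated group against Vehicle (edgeR adjusted p = 0.649) and 0.08 ± 0.71 against R788 + anti-PDL1 (edgeR adjusted p = 0.959). The last pair became -0.81 and -1.41 without irradiated replicate 3, and the first ranged from 0.29 without Vehicle replicate 3 to 1.27 without Vehicle replicate 1. Per 1000 counts of the 12 macrophage markers, Vsir spanned 10.6 to 29.7 counts over the 9 libraries, a 2.81-fold range, against a 7.33-fold range of its CPM. Cd274 on the same scale spanned 2.81 to 19.1 counts, a 6.80-fold range, against a 4.90-fold range of its CPM. These ranges describe single libraries and carry no test.

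**Figure D3:**
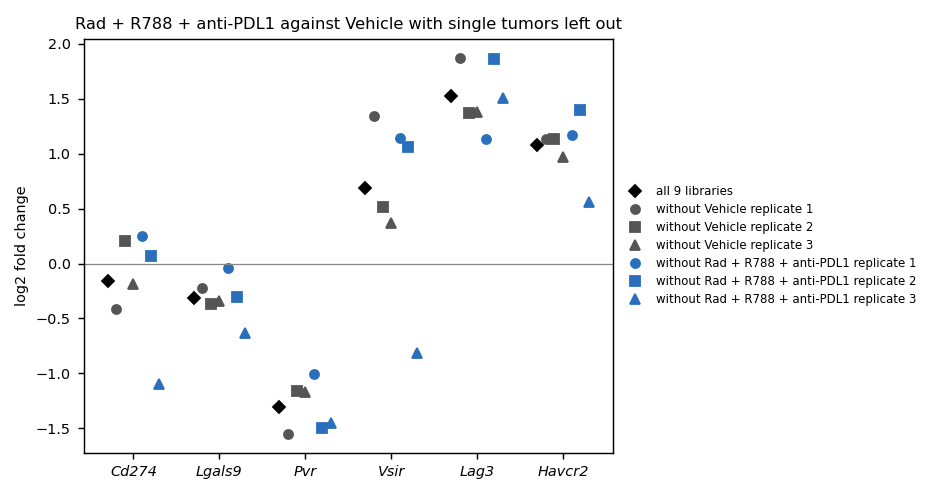
Log2 fold change of the irradiated group against Vehicle (vertical axis) for the 6 tested checkpoint genes (horizontal axis), fitted with all 9 libraries (diamonds) and with a single Vehicle tumor (gray) or irradiated tumor (blue) left out. Vsir moves from 0.68 to -0.81 and Cd274 from -0.16 to -1.09 without irradiated replicate 3, and Pvr stays between -1.55 and -1.00.

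Lag3 was the receptor with the most reads, and its mean was higher in both treated groups, by differences that did not pass the adjusted threshold. It lies at chr6:124904361-124911705 (minus strand). Its level was 1.38, 0.763 and 0.767 CPM in the Vehicle tumors (25, 17 and 14 counts), 2.03, 4.09 and 1.80 CPM in the R788 + anti-PDL1 tumors (46, 107 and 44 counts), and 4.28, 1.32 and 2.83 CPM in the irradiated tumors (58, 26 and 62 counts). The R788 + anti-PDL1 tumors lay above all Vehicle tumors, while irradiated replicate 2 fell among the Vehicle tumors. The log2 fold change was 1.44 ± 0.57 for R788 + anti-PDL1 against Vehicle (95% interval 0.17 to 2.71; edgeR adjusted p = 0.359) and 1.52 ± 0.57 for the irradiated group against Vehicle (0.25 to 2.80; edgeR adjusted p = 0.332). limma-voom with sample quality weights called the first of these (adjusted p = 0.0277). Between the treated groups the difference was 0.08 ± 0.55 (95% interval -1.14 to 1.31; edgeR adjusted p = 0.945). Over single tumors left out, the difference of R788 + anti-PDL1 from Vehicle ranged from 0.98 to 1.80, the lowest without R788 + anti-PDL1 replicate 2.

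Havcr2 encodes TIM-3, which is found on exhausted T cells and also on macrophages and dendritic cells. It lies at chr11:46454935-46481255 (plus strand). Its level was 0.883, 0.898 and 0.712 CPM in the Vehicle tumors, 1.10, 0.726 and 1.60 CPM in the R788 + anti-PDL1 tumors, and 1.62, 0.863 and 2.79 CPM in the irradiated tumors. In each treated group 1 tumor lay among the Vehicle tumors. The log2 fold changes were 0.45 ± 0.55, 1.08 ± 0.55 and 0.62 ± 0.54 for R788 + anti-PDL1 against Vehicle, the irradiated group against Vehicle, and the irradiated group against R788 + anti-PDL1. The edgeR adjusted p-values were 0.819, 0.410 and 0.530. Without irradiated replicate 3 the second became 0.56 and the third 0.11, and the first became 0.13 without R788 + anti-PDL1 replicate 3. On the scale of macrophage marker counts used for Vsir, Havcr2 spanned 0.977 to 2.81 counts over the 9 libraries, a 2.87-fold range, against a 3.91-fold range of its CPM.

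Pdcd1, Ctla4 and Tigit, the receptors most restricted to T cells, had at most 11 counts in any library other than irradiated replicate 3. Pdcd1, which encodes PD-1, lies at chr1:94038305-94052553 (minus strand) and had 1, 8 and 0 counts in the Vehicle tumors, 6, 11 and 11 in the R788 + anti-PDL1 tumors and 4, 8 and 68 in the irradiated tumors. Ctla4 lies at chr1:60887000-60915832 (plus strand) and had 0, 3 and 0, then 2, 0 and 3, and then 2, 1 and 45 counts in the same order. Tigit lies at chr16:43648867-43664146 (minus strand) and had 2, 0 and 5, then 5, 4 and 4, and then 0, 3 and 30 counts. In all 3 genes the counts of irradiated replicates 1 and 2 lay within the range of the non-irradiated tumors, and irradiated replicate 3 lay above every other library. It held 80.4% of all Ctla4 counts (Wilson 95% interval 68.2 to 88.7%), 58.1% of those of Pdcd1 (49.1 to 66.7%), 56.6% of those of Tigit (43.3 to 69.0%) and 45.6% of those of Pdcd1lg2 (33.4 to 58.4%). The same library held 67.5% of the counts of Cd3e (56.6 to 76.8%). In CPM it exceeded the next highest library 6.89-fold for Pdcd1 (exact 95% counting interval 3.62 to 14.4) and 5.00-fold for Tigit (1.92 to 16.5). For Ctla4 the next highest library had only 2 counts, and the ratio of 13.9 had an interval of 3.64 to 119.

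**Figure D4:**
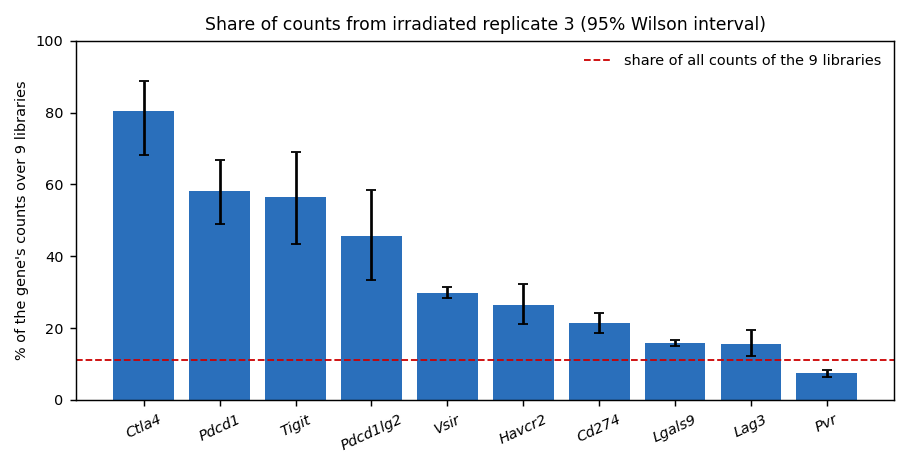
Percent of each checkpoint gene's counts over the 9 libraries that came from irradiated replicate 3 (bars, with 95% Wilson intervals for counting error); the dashed line is that library's share of all counts, 11.0%. The shares run from 80.4% for Ctla4 to 7.37% for Pvr.

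These 3 receptors did not pass the filter on low counts. Their pooled ratios of the irradiated group to Vehicle were 17.0 for Ctla4 (95% interval 5.48 to 85.3), 9.45 for Pdcd1 (4.74 to 21.4) and 5.01 for Tigit (2.18 to 13.4). Without irradiated replicate 3 the ratios were 1.76 (0.236 to 13.2), 2.35 (0.909 to 6.31) and 0.755 (0.126 to 3.31), so the pooled differences rested on that tumor. The ratios of R788 + anti-PDL1 to Vehicle were 1.33 (0.260 to 8.59) for Ctla4, 2.49 (1.14 to 6.00) for Pdcd1 and 1.49 (0.551 to 4.40) for Tigit. The ratios to Vehicle also depended on single Vehicle tumors. Vehicle replicate 2 held 8 of the 9 Pdcd1 counts of its group, and without it the ratios of Pdcd1 were 52.7 for the irradiated group and 13.9 for R788 + anti-PDL1. It also held all 3 Ctla4 counts of the group, so that no ratio of Ctla4 could be formed without it. Vehicle replicate 3 held 5 of the 7 Tigit counts, and without it the ratios of Tigit were 12.1 and 3.58. With no filter, the edgeR adjusted p-values of the irradiated group against Vehicle were 0.458 for Ctla4, 0.413 for Pdcd1 and 0.600 for Tigit, and DESeq2 gave 0.237, 0.132 and 0.508.

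The receptors were also set against the CD3 chains of the same library. Irradiated replicate 3 had the most CD3 counts of all libraries, so any gene whose counts did not rise with CD3 has a low ratio there. The ratios therefore do not show which cells carried a receptor. In irradiated replicate 3 there were 0.453 Pdcd1 counts per CD3 count (exact 95% interval 0.335 to 0.608), and the remaining 8 libraries, summed, gave 0.700 (0.476 to 1.02). Ctla4 gave 0.300 (0.210 to 0.421) and 0.157 (0.0750 to 0.299), and Tigit 0.200 (0.130 to 0.298) and 0.329 (0.196 to 0.533). For these 3 genes the intervals of irradiated replicate 3 and of the other libraries overlapped. Single values of the other libraries varied widely, from 0 to 2.0 for Pdcd1, 0 to 0.75 for Ctla4 and 0 to 0.833 for Tigit. Lag3 gave 0.413 (0.302 to 0.559) in irradiated replicate 3, whereas the rest gave 4.81 (3.71 to 6.32) when summed and single values that ran from 2.33 to 11.6. Havcr2 gave 0.407 (0.297 to 0.551) and 2.44 (1.84 to 3.27), with single values of 0.760 in R788 + anti-PDL1 replicate 2, which had the most CD3 counts of the 8 libraries, and 2.17 to 5.00 in the other 7. The value of Lag3 in irradiated replicate 3 thus lay below that of every other library, as did that of Havcr2. The intervals cover counting error only, and the 8 summed libraries held 70 CD3 counts in all.

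**Figure D5:**
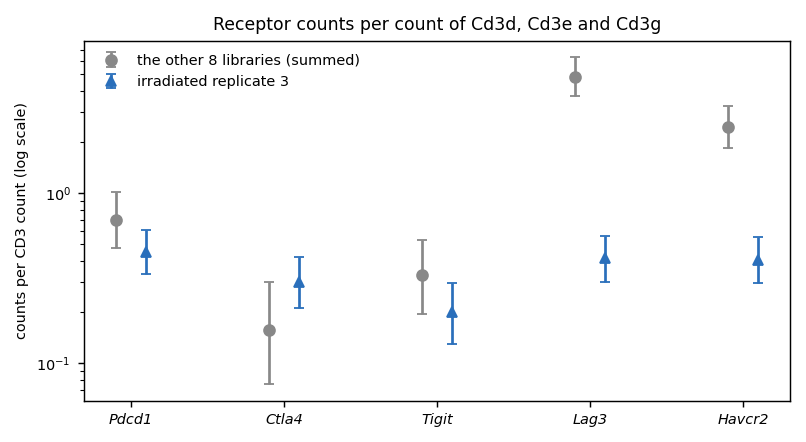
Counts of each receptor gene per summed count of Cd3d, Cd3e and Cd3g (vertical axis, log scale) in irradiated replicate 3 (blue triangles) and in the other 8 libraries summed (gray circles), with exact 95% intervals for counting error. Lag3 and Havcr2 lie at 0.413 and 0.407 in irradiated replicate 3, below the 4.81 and 2.44 of the summed libraries, and the intervals of Pdcd1, Ctla4 and Tigit overlap between the sets. The divisor, the CD3 count, was highest in irradiated replicate 3.

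The summed level of the 5 receptors was 1.75 to 2.43 CPM in the Vehicle tumors, 3.70 to 5.39 CPM in the R788 + anti-PDL1 tumors and 6.34, 2.79 and 12.1 CPM in irradiated replicates 1 to 3. Both treated groups lay above the Vehicle tumors, and Lag3 contributed the most reads in every group. The 13 T cell markers all had counts in some library and summed to 4.22 to 9.83 CPM in the Vehicle tumors, 18.8 to 32.1 CPM in the R788 + anti-PDL1 tumors and 7.82, 13.6 and 54.2 CPM in irradiated replicates 1 to 3. Of the 6 T cell markers tested, Zap70 had the lowest p in both comparisons with Vehicle (2.45 ± 0.59 and 3.04 ± 0.59, edgeR adjusted p = 0.108 and 0.119). edgeR called no T cell marker, with 2, 2 and 0 unadjusted p-values under 0.05 in the 3 comparisons, beside 11.7%, 13.2% and 18.4% of all tested genes. DESeq2 called Cd4 and Zap70 higher in R788 + anti-PDL1 than in Vehicle (adjusted p = 0.0284 and 0.00596) and Zap70 higher in the irradiated group than in Vehicle (adjusted p = 0.00036). The T cell sums and the receptor sums did not have the same order: irradiated replicate 1, second in the receptor sum, had a T cell sum within the Vehicle range, and R788 + anti-PDL1 replicate 1 had the highest T cell sum and the lowest receptor sum of its group. Cd4, which some dendritic cells also carry, and the kinase gene Lck made up 62.9 to 90.1% of the T cell sum in the R788 + anti-PDL1 tumors. Cd3e was at 0.135 to 0.274 CPM in the Vehicle tumors and 0.0410 to 0.191 CPM in the R788 + anti-PDL1 tumors. The counts of Cd3d, Cd3e and Cd3g together went the other way, with 6, 4 and 6 in the Vehicle tumors and 10, 25 and 9 in the R788 + anti-PDL1 tumors. Cd8a differed between these groups by 0.50 ± 1.41 (edgeR adjusted p = 0.933). The 5 ligands summed to 81.7 to 90.1, 69.7 to 76.7 and 37.2 to 118 CPM in the 3 groups. The macrophage markers summed to 346 to 709 CPM in the Vehicle tumors, 743 to 755 CPM in the R788 + anti-PDL1 tumors and 578, 380 and 1973 CPM in irradiated replicates 1 to 3. NK cell markers (1.53 to 2.71, 3.75 to 11.5 and 2.03 to 11.9 CPM), regulatory T cell markers (7.01 to 8.28, 8.22 to 22.9 and 3.69 to 14.0 CPM), dendritic cell markers (18.2 to 20.2, 22.8 to 30.0 and 19.0 to 39.6 CPM) and B cell markers (1.08 to 2.52, 2.14 to 4.47 and 1.22 to 3.20 CPM) completed the immune lists. The neuroblastoma cell markers summed to 489 to 605, 629 to 699 and 617 to 966 CPM, of which Mycn and Hand2 made up 98.6 to 99.8% in each library. The part of cell numbers in the checkpoint values was not tested. Of the genes in the lists of cell types, Isl1 alone was called by edgeR, higher in R788 + anti-PDL1 than in Vehicle (edgeR adjusted p = 0.0344). The call held under 7 of 12 alternatives, and edgeR called 0.678% of all tested genes in this comparison. Besides Isl1 and the T cell markers, DESeq2 called Ccr8 and C1qa higher in the irradiated group than in Vehicle (adjusted p = 0.0385 and 0.0489). edgeR called neither (adjusted p = 0.222 and 0.289). Ccr8 was at 0.751 ± 0.222 CPM in the irradiated tumors and 0.0150 CPM in the Vehicle tumors, below the floor of 3 counts. C1qa was at 140 ± 92.2 and 43.8 ± 26.4 CPM, and its groups overlapped. limma-voom with sample quality weights also called genes of the NK cell, regulatory T cell, macrophage and dendritic cell lists.

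The wider checkpoint families held no gene called by edgeR, and other tools called some. Of 15 other ligands 13 were tested, with medians of 0.33 for R788 + anti-PDL1 against Vehicle, 0.27 for the irradiated group against Vehicle and 0.15 for the irradiated group against R788 + anti-PDL1. In these comparisons 2, 1 and 1 of them had an unadjusted edgeR p under 0.05, beside 11.7%, 13.2% and 18.4% of all tested genes. DESeq2 called 1, 0 and 0, and limma-voom with sample quality weights, which called a large part of all genes, called 4, 1 and 3. Nectin3, an adhesion molecule of the same nectin family as Pvr, came closest to a call. It was at 10.2 ± 1.20 CPM in the Vehicle tumors, 4.42 ± 0.567 in the R788 + anti-PDL1 tumors and 6.84 ± 0.220 in the irradiated tumors (SD, n = 3), with no overlap between any groups. Lack of overlap held for 30.1%, 20.5% and 27.4% of all tested genes in the comparisons, in the order above. The log2 fold change of Nectin3 was -1.20 ± 0.26 for R788 + anti-PDL1 against Vehicle (edgeR adjusted p = 0.0832), and DESeq2 called it (adjusted p = 0.000379). Tnfrsf14, the ligand of BTLA, differed by 1.30 ± 0.52 between the irradiated group and Vehicle (edgeR adjusted p = 0.353), which limma-voom with sample quality weights called (adjusted p = 0.0459). Cd86, bound by CD28 and CTLA-4, had the highest value of that comparison, 1.49 ± 0.68 (edgeR adjusted p = 0.384). It was at 1.48, 1.83 and 9.68 CPM in irradiated replicates 1 to 3 and at 1.27 to 1.75 CPM in the Vehicle tumors, and the difference was 0.09 without irradiated replicate 3.

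Of 14 other receptors 8 were tested, with medians of 0.68, 0.94 and 0.59 in the same order of comparisons. Of these 2, 1 and 0 had an unadjusted edgeR p under 0.05, beside 11.7%, 13.2% and 18.4% of all tested genes. DESeq2 called 0, 1 and 0, and limma-voom with sample quality weights called 1, 1 and 0. Cd28, the costimulatory receptor that CTLA-4 opposes, had the highest value in each. It was at 0.107 ± 0.0598 CPM in the Vehicle tumors, 0.440 ± 0.198 in the R788 + anti-PDL1 tumors and 1.07 ± 0.984 in the irradiated tumors, and the irradiated group differed from Vehicle by 3.30 ± 0.89 (edgeR adjusted p = 0.222), which DESeq2 called (adjusted p = 0.0381). Without irradiated replicate 3 Cd28 did not pass the filter. Without irradiated replicate 3 the list's median against Vehicle was -0.02, from 7 tested genes. Tnfrsf9, which encodes the costimulatory receptor 4-1BB, went the other way in R788 + anti-PDL1 against Vehicle (-1.03 ± 0.44, edgeR adjusted p = 0.398), and limma-voom with sample quality weights called it lower (adjusted p = 0.00507). Of 10 factors of T cell exhaustion 8 were tested, with medians of 0.30, 0.58 and -0.02. edgeR called none, with 2, 0 and 2 unadjusted p-values under 0.05, beside the same shares of all tested genes. DESeq2 called 1, 0 and 0, and limma-voom with sample quality weights, which called a large part of all genes, called 4, 0 and 2. Eomes, a T-box factor of exhausted and memory T cells, was at 1.51 ± 0.70 in R788 + anti-PDL1 against Vehicle and 1.55 ± 0.70 in the irradiated group against Vehicle (edgeR adjusted p = 0.452 and 0.381), and the latter was 0.69 without irradiated replicate 3. Nr4a1, an early response gene of T cell receptor signaling that many other cells also use, was at -1.54 ± 0.40 in R788 + anti-PDL1 against Vehicle (edgeR adjusted p = 0.138). DESeq2 called this difference (adjusted p = 0.0129), as did edgeR without Vehicle replicate 1 (-1.89, adjusted p = 0.0269).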

How the data were processed

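Per the labels and the study's methods, RNA from whole tumors was sequenced after poly(A) selection, aligned to mouse build mm10 with STAR 2.6.1d and quantified with Salmon 1.4.0 (versions from the submitters' processing notes). The extraction text of the labels names macrophages as the RNA source, and the sources differ on the sequencer. The deposited values were estimated counts per gene symbol, whole numbers with no normalization by the authors. Genes were filtered with filterByExpr (minimum count 10), normalized by TMM and fitted with all 9 libraries in edgeR 4.0.16 (R 4.3.3) by the robust quasi-likelihood F test, two-sided, called at a Benjamini-Hochberg adjusted p under 0.05, and the method was tested on simulated data. CPM uses effective library sizes. SE is the log2 fold change divided by the square root of F, and intervals are at 95% by the t distribution of the fit. log2 CPM for pattern likeness uses a prior count of 2. Intervals and the floor of 3 counts per library cover counting error only. Coordinates, exon lengths and overlaps are from GENCODE M21. Alternatives were RLE normalization, DESeq2 1.42.0, limma-voom 3.58.1 with sample quality weights, leaving out the low-count filter, requiring 10 or more counts in each library, only the 6 libraries compared, the replicate block, and leaving out each replicate. The checkpoint genes and the gene lists, written from general knowledge, were chosen with earlier results of these data known. All 10 checkpoint genes are named. Of the other lists, called genes, genes with the lowest p or the highest or lowest fold change, and summed CPM were eligible to be given, and the 3 nearest genes of a pattern exclude predicted genes. The pooled ratios without single libraries, and the list values without an irradiated replicate, were chosen after the data were seen, as were the values of list genes without single libraries and the ratios to CD3 and to macrophage markers. Results of a few list genes and of 1 motif are not reported here.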

Additional observations from a re-analysis of the deposited data

How the results depend on the processing

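Among 234 alternative values of the 6 tested checkpoint genes, 207 kept direction and side of the threshold, 5 gained a call and 22 changed sign. No checkpoint gene was called with any single tumor left out (0 to 0). limma-voom with sample quality weights called 2 (Lgals9 and Lag3) in R788 + anti-PDL1 against Vehicle and 1 (Pvr) in each irradiated comparison, and DESeq2 called 1 (Pvr) in the irradiated group against Vehicle. The main fit and the quality weights each tested 15931 genes, and DESeq2 was fitted to all genes with any counts, a different total. Over all genes, the 108, 7 and 1 calls of the 3 comparisons became 726, 553 and 646 with DESeq2 and 4835, 1993 and 3080 with quality weights. They became 199, 70 and 24 with no filter, and 594, 1 and 0 with only the 6 libraries compared (1908 unadjusted p-values under 0.05 in the last). Leaving out single tumors gave 0 to 75, 1 to 57 and 0 to 21 calls, with at least 1171 and 1473 unadjusted p-values under 0.05 in the first and the last.

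Cd274 changed sign without Vehicle replicate 2 (0.20 in both comparisons with Vehicle), without R788 + anti-PDL1 replicate 2 (0.11), and without irradiated replicate 1 (0.25) or 2 (0.07). Single tumors left out gave -0.42 to 0.20 for R788 + anti-PDL1 against Vehicle and -1.09 to 0.25 for the irradiated group against Vehicle, where Vsir ranged from -0.81 (without irradiated replicate 3) to 1.34. In the irradiated group against R788 + anti-PDL1 those ranges were -0.93 to 0.39 for Cd274, -0.077 to 0.49 for Lgals9, -1.41 to 0.52 for Vsir and -0.34 to 0.54 for Lag3, the lowest without irradiated replicate 3 for all but Lag3 (irradiated replicate 1). Cd274 there was -0.0023 with RLE, -0.0052 with DESeq2, -0.064 with quality weights, -0.012 with no filter and -0.0081 with at least 10 counts in every library. With quality weights Vsir was -0.12 and Lag3 -0.012. The causes were not tested.

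Same-numbered tumors did not deviate together: the deviations from group means correlated at -0.046 to 0.233 over 9 pairs, 2 of them above 0.1, and in 7 of 18 choices a library correlated best with its own number. With the replicate block the calls over all genes were 0, 3 and 0 (1775 and 2789 unadjusted p-values under 0.05 in the first and the last), no checkpoint gene was called, and Cd274 (-0.24) and Vsir (-0.23) changed sign in the irradiated group against R788 + anti-PDL1. Pdcd1lg2, Pdcd1, Ctla4 and Tigit had at most 11 counts in any library outside irradiated replicate 3, so that counting error is large beside their levels there.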
